A study of Homo sapiens with 6 samples.

Results

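The genes described here are those of DNA repair and of the checkpoints that sense DNA damage. The list holds 57 symbols from 6 pathways (Fanconi, homologous recombination, mismatch repair, excision repair, end joining and checkpoint) and the translesion polymerase gene POLH. Of these, 32 were measured, that is, the platform annotation gives them a probe set with exactly 1 symbol, among 14884 such genes in all. The measured genes were 10 of 14 in homologous recombination, 5 of 5 in mismatch repair, 7 of 13 in excision repair, 3 of 6 in end joining and 7 of 8 in the checkpoint. The 10 Fanconi genes (FANCA, FANCB, FANCC, FANCD2, FANCE, FANCF, FANCG, FANCI, FANCL and FANCM) were not analysed here, and neither were BRCA1, BRCA2, BLM, WRN, LIG3, ERCC1, ERCC2, XPA, XPC, DDB2, LIG4, PRKDC, POLQ, ATM and POLH. No member of nucleotide excision repair was therefore measured, and the excision group holds base excision repair genes alone.

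Expression was measured on 6 one-colour arrays of MM.1S, a human cell line of multiple myeloma, the cancer of antibody-secreting plasma cells. In the 3 ATRA samples, cells received a 1 h pulse of Cfz (the usual abbreviation of the proteasome inhibitor carfilzomib) and then 10 µM ATRA (all-trans retinoic acid, which activates nuclear receptors of the RAR family) for 12 h. In the 3 DMSO samples the same pulse was followed by 12 h with DMSO, the solvent. Both groups thus carry the Cfz exposure, cells without it were not analysed here, and all samples come from 1 cell line. Whether the samples were separate cultures is not stated in the labels. The p-values therefore rest on the variation among these 6 samples, which may be technical. Each probe set has a linear intensity on each array, and with 3 arrays per group the precision is limited. Array medians over all probe sets lay between 9.40 and 9.76. Plasma cell markers were bright, with SDC1, CD38, IRF4, XBP1 and MZB1 at mean log2 levels of at least 8.29 in each group. The 90th percentile of the mean levels of 12 measured markers of T cells, myeloid, stromal and endothelial cells was 3.57 (log2), and 0 of the 32 repair genes had means under it in both groups. RAD52, XRCC3, OGG1 and RAD54B nevertheless had means under those of CD8A, the highest of these markers (4.75 with ATRA and 5.06 with DMSO), so their differences are uncertain. Epithelial and B cell markers were not part of that level. Of these, KRT18, KRT8, EPCAM and PAX5 had mean log2 levels of 7.08, 4.84, 4.41 and 3.83 with ATRA. With DMSO the levels were 7.23, 4.65, 4.85 and 3.89.

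Cells repair DNA by routes that depend on the lesion and on the phase of the cell cycle. Base excision repair removes single damaged or wrong bases, mismatch repair corrects errors left by the replicative polymerases, and end joining religates broken ends in any phase. Homologous recombination copies the intact sister chromatid and so works in S and G2 phase, while the checkpoint kinases ATR and ATM stop the cycle when DNA is broken or replication stalls. Many genes of recombination, mismatch repair and the ATR branch are transcribed together with the replication machinery under E2F transcription factors as cells enter S phase. Proteasome inhibitors are a standard treatment of myeloma.

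After ATRA, 5 of the 32 measured genes fell and 0 rose in limma's test, adjusted over all 14884 genes by Benjamini-Hochberg at a threshold of 0.05. The 5 were RAD54L, UNG, MSH6, CHEK1 and EXO1, each 1.54-fold to 1.88-fold lower with ATRA. Of all genes tested, 2.07% passed as lower and 1.73% as higher. At an unadjusted p under 0.05, 15 members were lower and 1, ATR, was higher, against 10.4% and 7.52% of all genes. The 3 ATRA values lay under all 3 DMSO values for 17 members, against 14.8% of all genes, and above them for 2 members, against 9.86% of all genes. The median log2 difference (ATRA minus DMSO) of the 32 members was -0.22, and that of all genes was -0.01. In mean, 24 members were lower and 8 were higher with ATRA, against 7879 lower and 7005 higher of all 14884 genes. The arrays measured RNA of whole cultures, so fewer cells in a phase of the cycle and less of a transcript per cell cannot be told apart. The count of lower members was 14 with eBayes with trend and robust, where 5.60% of all genes were lower, and 12 without the dimmer 50% of genes, where 9.50% were. It was 3 or 4 with 1 array left out, where 0.638% to 1.11% of all genes were lower.

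**Figure D1:**
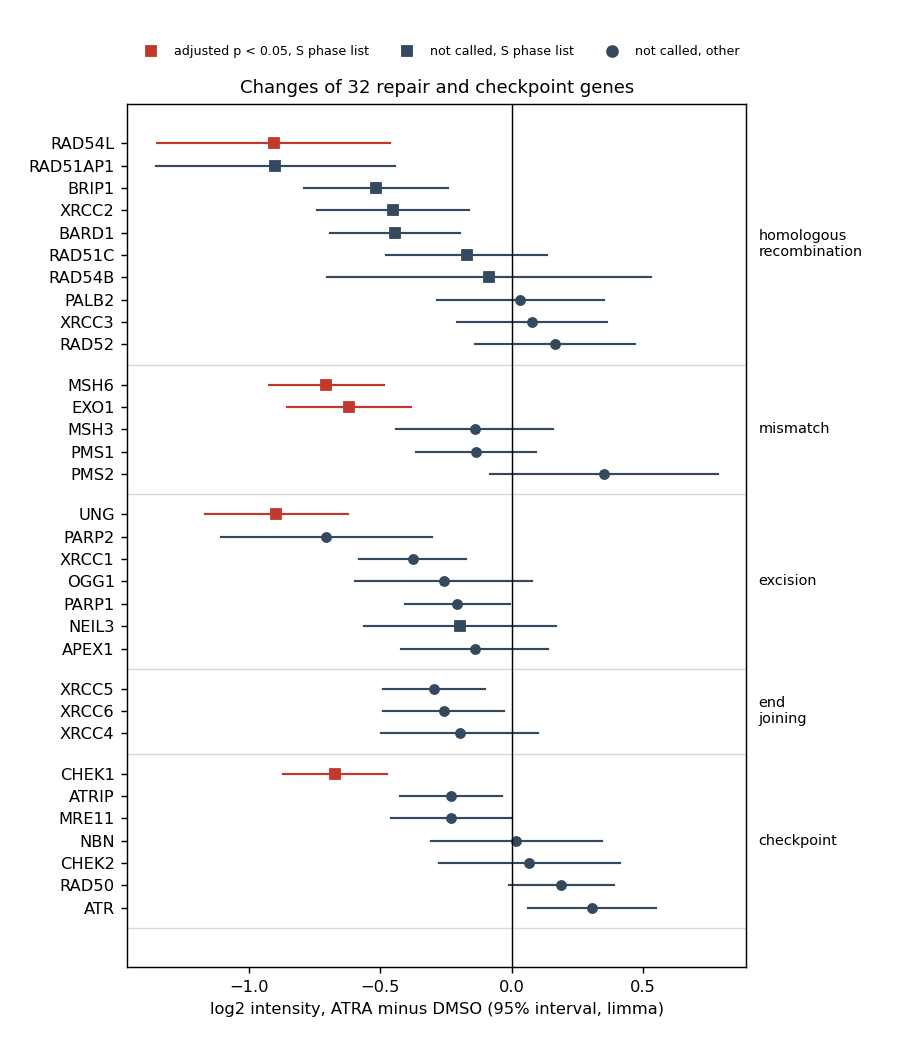
Log2 difference of intensity (ATRA minus DMSO, x axis) for each of the 32 measured genes, grouped by pathway, with the 95% interval of limma's fit as a line. Red squares mark the 5 genes past the adjusted threshold, and squares of either colour mark genes of the S phase list, all 12 of which lie left of 0.

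In homologous recombination RAD54L fell and the other 9 genes did not pass, 6 of them lower and 3 higher in mean with ATRA. Among all 14884 genes, 2.07% passed as lower and 7879 were lower in mean. RAD54L, a motor protein of homologous recombination, had intensities of 45.1, 50.6 and 31.5 in ATRA samples, against 67.2, 82.6 and 85.5 in DMSO samples. The groups did not overlap, and the log2 change was -0.91 (SE 0.19, limma adjusted p = 0.0481). Dropping any of the 6 arrays ended the call (adjusted p 0.0560 to 0.157). RAD51AP1, which stimulates strand pairing, had 57.7, 76.3 and 98.9 in ATRA samples, against 147, 153 and 126 in DMSO samples. Its groups were also apart, with a log2 difference of -0.90 that missed the threshold (adjusted p = 0.0539) and passed it without ATRA replicate 3 (-1.09, adjusted p = 0.0366), the sample nearest to the DMSO values.

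BARD1 and BRIP1, which encode partners of BRCA1, were lower in mean without passing. BARD1, which forms a ubiquitin ligase with BRCA1, had 107, 103 and 106 in ATRA samples, against 133, 136 and 162 in DMSO samples, a log2 difference of -0.44 (95% interval -0.69 to -0.20, limma adjusted p = 0.0733). BRIP1, a helicase that binds BRCA1, had 112, 99.3 and 121 in ATRA samples, against 171, 142 and 161 in DMSO samples, a log2 difference of -0.52 (95% interval -0.79 to -0.24, adjusted p = 0.0634). Neither gene's groups overlapped.

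The other 6 recombination genes did not pass. XRCC2, a recombination gene, had 56.4, 68.1 and 72.2 in ATRA samples, against 89.1, 96.5 and 82.4 in DMSO samples (log2 difference -0.45, adjusted p = 0.106). Its groups did not overlap. For RAD51C the difference was -0.17 with a 95% interval of -0.48 to 0.13. XRCC3, whose product pairs with that of RAD51C, stood at 0.08 (interval -0.21 to 0.37). PALB2, which bridges BRCA1 and BRCA2, differed by 0.03 (interval -0.28 to 0.35), RAD52, an annealing protein, by 0.16 (interval -0.14 to 0.47) and RAD54B, the relative of RAD54L, by -0.09 (interval -0.70 to 0.53). For these 5 genes the groups overlapped, and the intervals leave room for changes in either direction.

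In mismatch repair 2 of 5 genes fell, MSH6 and EXO1, against 2.07% of all genes, and the other 3 did not pass. MSH6 is a subunit that recognises single mispaired bases. It had 144, 141 and 139 in ATRA samples, against 211, 242 and 239 in DMSO samples, 1.63-fold lower (log2 change -0.71, SE 0.094, limma adjusted p = 0.00968). EXO1 is the exonuclease that removes the strand carrying the error and also trims broken ends for recombination. It had 192, 178 and 189 in ATRA samples, against 276, 269 and 316 in DMSO samples, 1.54-fold lower (log2 change -0.62, SE 0.10, adjusted p = 0.0193). All ATRA values of both genes lay under all DMSO values. When single arrays were dropped, EXO1 passed only without DMSO replicate 2 (adjusted p = 0.0495), and the other 5 fits reached up to 0.0696. MSH6 passed in all 6 of those fits (adjusted p up to 0.0473).

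The promoters of MSH6 and EXO1 are shown because they are the 2 of the 5 called genes whose windows hold a match to an E2F motif. The motif was searched as TTTGGCGC, TTTGCCGC, TTTCGCGC and TTTCCCGC on both strands, over 250 bases before to 50 from the start site used by the RefSeq promoter table (GRCh38.p14). Shown are the last 100 bases before that start and the 30 bases from it, 5′ to 3′ on the plus strand, at chr2:47783045-47783174 for MSH6 and chr1:241848104-241848233 for EXO1. Capitals mark the match.
MSH6: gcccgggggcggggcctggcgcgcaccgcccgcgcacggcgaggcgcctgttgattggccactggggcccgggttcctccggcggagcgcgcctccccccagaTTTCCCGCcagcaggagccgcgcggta
EXO1: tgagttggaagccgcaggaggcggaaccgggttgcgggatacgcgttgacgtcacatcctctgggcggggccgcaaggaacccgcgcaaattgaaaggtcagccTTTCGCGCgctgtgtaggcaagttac
Both matches begin just past the start site, at its base 4 in MSH6 and base 5 in EXO1. A match was found in 6 of the 29 measured members that have a promoter in the table (20.7%), in 4.49% of the promoters of all tested genes found there and in 3.31% of all promoters in the table. The other members with a match were XRCC2, MSH3, PMS2 and XRCC6, so matches stood beside differences of either sign. Of the measured replication genes described further on, 14 of 22 had one (63.6%), and of the mitosis genes 3 of 23 (13%). Among the members with a promoter in the table it was 3 of 11 on the S phase list (27.3%) and 3 of 18 others (16.7%). A match describes the letters and does not show binding, and a window without one says nothing about the factor.

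The remaining mismatch genes lay on both sides of 0. MSH3, a subunit that recognises loops of several bases, had 256, 251 and 211 in ATRA samples, against 282, 228 and 281 in DMSO samples. These values overlapped, with a log2 difference of -0.14 (95% interval -0.44 to 0.16). PMS1, a relative of PMS2, differed by -0.14 (interval -0.37 to 0.09), with ATRA values just under all DMSO values. PMS2, which nicks the strand to be repaired, had 63.4, 102 and 82.3 in ATRA samples, against 56.8, 73.3 and 61.5 in DMSO samples. Its difference of 0.35 was the highest among the members, with overlapping groups and an adjusted p of 0.388. Near-identical pseudogenes of PMS2 exist, which makes this value uncertain.

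All 7 base excision genes were lower in mean with ATRA, as were 7879 of all 14884 genes. In limma's test 1 of the 7 passed as lower, against 2.07% of all genes. UNG, the glycosylase that removes uracil from DNA and acts close to replication forks, had 94.8, 122 and 107 in ATRA samples, against 196, 212 and 191 in DMSO samples. It was 1.86-fold lower, at an intensity of 108 ± 13.5 with ATRA against 200 ± 10.8 with DMSO (SD, n = 3 each; log2 change -0.90, SE 0.12, limma adjusted p = 0.00892). UNG passed whichever array was dropped (adjusted p up to 0.0449).

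PARP2 and XRCC1, which act after the base has been cut out, came next. PARP2, a sensor of single-strand breaks, had 42.0, 40.7 and 40.9 in ATRA samples, against 50.7, 75.9 and 78.9 in DMSO samples. Its ATRA values were tightly grouped and DMSO replicate 1 lay nearest to them. The log2 difference was -0.71 (adjusted p = 0.0757), and without DMSO replicate 1 it was -0.91 and passed (adjusted p = 0.0159). XRCC1, the scaffold of single-strand break repair, had 402, 446 and 419 in ATRA samples, against 550, 550 and 543 in DMSO samples (difference -0.38, 95% interval -0.58 to -0.17, adjusted p = 0.0681). Its groups were clearly apart.

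The abundant sensor PARP1 had 1224, 1238 and 1198 in ATRA samples, against 1387, 1364 and 1477 in DMSO samples. That is a small difference of -0.21 with no overlap, which did not pass (adjusted p = 0.264). PARP1 passed in 1 other setting, limma's eBayes with trend and robust (adjusted p = 0.0063). OGG1, which removes oxidised guanine, differed by -0.26 (95% interval -0.60 to 0.08). NEIL3, a glycosylase of oxidised bases and crosslinks, differed by -0.20 (interval -0.56 to 0.17), and APEX1, the endonuclease that cuts at the vacated site, by -0.14 (interval -0.42 to 0.14). The groups of these last 3 genes overlapped.

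In end joining 0 of 3 genes passed in limma's test, where 2.07% of all genes were lower and 1.73% higher. At an unadjusted p under 0.05, 2 were lower, against 10.4% of all genes. XRCC5 and XRCC6 encode Ku80 and Ku70, the ring that binds broken ends. XRCC5 had 2021, 2119 and 2136 in ATRA samples, against 2545, 2554 and 2600 in DMSO samples, a log2 difference of -0.30 (95% interval -0.49 to -0.10, adjusted p = 0.115). XRCC6 had 265, 266 and 306 in ATRA samples, against 331, 322 and 346 in DMSO samples, a difference of -0.26 (interval -0.49 to -0.03, adjusted p = 0.226). Neither gene's groups overlapped. XRCC5 passed in 3 other settings, with an adjusted p of 8.61e-05 under eBayes with trend and robust, which gave the most lower members. XRCC4, which holds the ligase of this pathway, differed by -0.20 with overlapping groups (interval -0.50 to 0.10).

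Of the checkpoint genes CHEK1 fell and 6 did not pass, with 3 of the 7 lower and 4 higher in mean. Over all 14884 genes, 2.07% passed as lower, and 7879 were lower and 7005 higher in mean. CHEK1 encodes CHK1, the kinase that ATR activates to restrain origin firing and entry into mitosis. It had 101, 94.3 and 95.8 in ATRA samples, against 156, 153 and 154 in DMSO samples, 1.59-fold lower (log2 change -0.67, SE 0.084, limma adjusted p = 0.00764). It had the lowest adjusted p of the 32 members and passed whichever array was dropped (up to 0.0434). ATRIP, the partner that brings ATR to single-stranded DNA, had 48.2, 49.5 and 47.2 in ATRA samples, against 56.0, 57.8 and 56.3 in DMSO samples (difference -0.23, adjusted p = 0.201). ATR itself had 135, 117 and 144 in ATRA samples, against 105, 107 and 107 in DMSO samples (difference 0.31, 95% interval 0.06 to 0.55, adjusted p = 0.180). The ATRIP values with ATRA were all lower and the ATR values all higher than with DMSO, and neither gene passed.

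**Figure D2:**
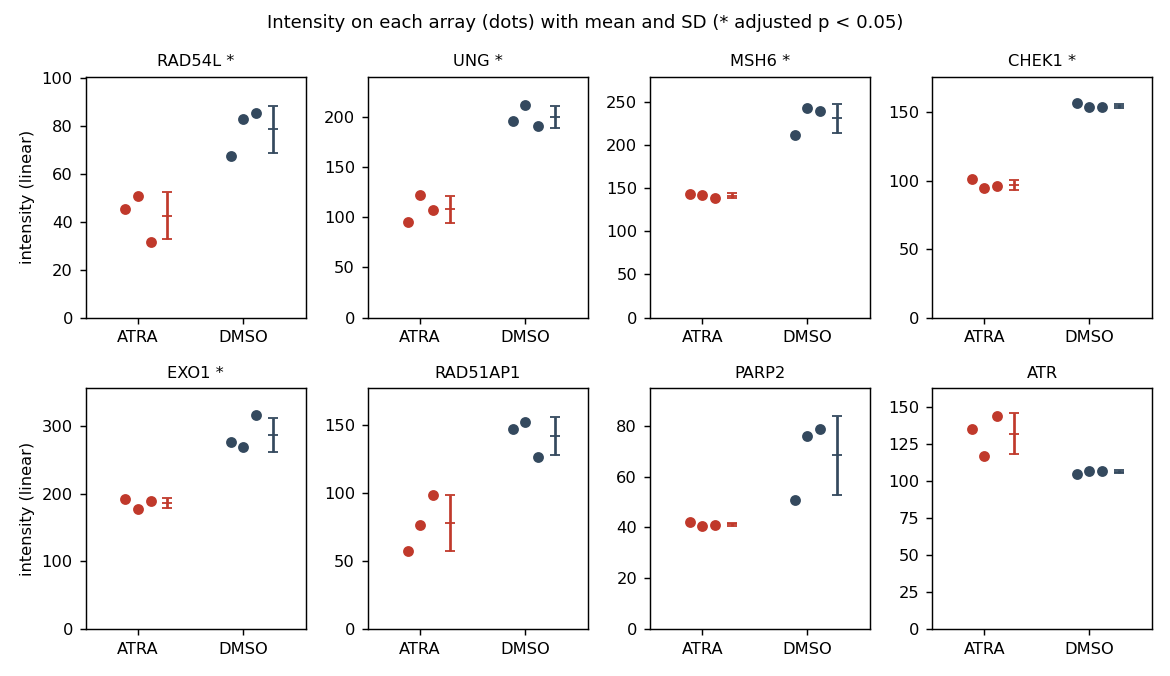
Linear intensity on each array (dots, y axis) for the 5 called genes, marked by an asterisk, and for RAD51AP1, PARP2 and ATR, with the group mean and SD beside the dots (n = 3, ATRA left of DMSO). In the called genes every ATRA sample lies under every DMSO sample, and in ATR every ATRA sample lies above.

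CHEK2, the kinase downstream of ATM, had 33.4, 39.2 and 43.5 in ATRA samples, against 38.4, 41.3 and 31.1 in DMSO samples. These overlap, and the difference was 0.07 (95% interval -0.28 to 0.41). A dimmer second probe set of CHEK2 gave -0.13, and pseudogene copies make its value uncertain. The genes of the complex that senses double-strand breaks did not pass and lay on both sides of 0. MRE11, its nuclease, had 128, 146 and 147 in ATRA samples, against 156, 166 and 170 in DMSO samples (difference -0.23, adjusted p = 0.279). RAD50, its tethering subunit, had 477, 491 and 466 in ATRA samples, against 413, 436 and 409 in DMSO samples (difference 0.19, adjusted p = 0.306). For MRE11 all ATRA values were lower and for RAD50 all were higher than the DMSO values, while NBN, the subunit that recruits ATM, overlapped (difference 0.02, interval -0.31 to 0.34).

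The differences in change between related genes were set side by side for 9 pairs, chosen after their values were seen. For each array the log2 ratio of the pair was taken, and the groups were compared with a two-sided exact permutation test, whose smallest possible p is 0.1 with 3 arrays against 3. For 6 pairs the ratios of the groups did not overlap, which gives the smallest exact permutation p of 0.1 (0.15 adjusted over the 9 pairs by Benjamini-Hochberg). The difference of their log2 differences was -0.56 for MSH6 less MSH3, -0.53 for XRCC2 less XRCC3 and -0.54 for ATRIP less ATR. It was -0.74 for CHEK1 less CHEK2, -0.42 for MRE11 less RAD50 and 0.50 for PARP1 less PARP2. The pairs PMS1 with PMS2 and RAD54L with RAD54B overlapped (exact permutation p = 0.2 each). The 2 Ku genes had a difference of -0.04, with SDs of 0.098 over ATRA samples and 0.038 over DMSO samples (exact permutation p = 0.7). At this size no pair could reach a p of 0.05. The adjustment over the 9 pairs does not account for how they were chosen, so no conclusion is drawn from these p-values.

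**Figure D3:**
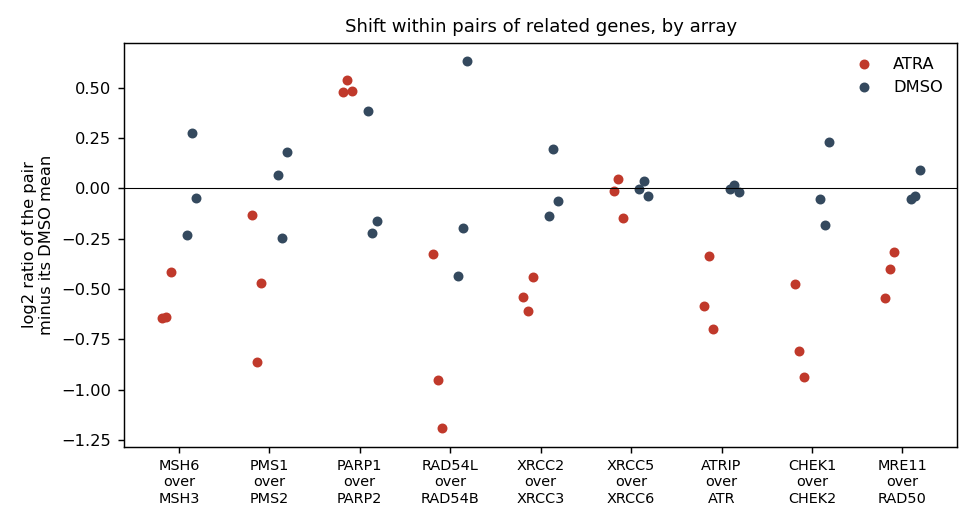
Log2 ratio of 2 related genes on each array, less its mean over DMSO samples (y axis), for 9 pairs, with ATRA dots left of DMSO dots. The dots of MRE11 over RAD50 and ATRIP over ATR lie lower in all ATRA samples, and those of XRCC5 over XRCC6 overlap around 0.

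The members were also split by a list of genes known to peak around S phase, written from general knowledge with earlier results of these data known. Of 22 such members 12 were measured (BARD1, BRIP1, RAD51C, RAD51AP1, RAD54L, RAD54B, XRCC2, EXO1, MSH6, UNG, NEIL3 and CHEK1). All 12 were lower in mean with ATRA, as were 7879 of all 14884 genes, and the median log2 difference of the 12 was -0.57. In limma's test 5 of the 12 fell, against 2.07% of all genes, and 7 did not pass. At an unadjusted p under 0.05, 9 of the 12 were lower and 0 were higher. Of the other 20 measured members 0 passed, with 6 lower and 1 higher at an unadjusted p under 0.05 (10.4% and 7.52% of all genes). With eBayes with trend and robust 9 of the 12 passed as lower, as did PARP1, PARP2, XRCC1, XRCC5 and XRCC6 of the 20. In that fit 5.60% of all genes were lower. Of these 20, 12 were lower and 8 were higher in mean, with a median of -0.14 and a range of -0.71 (PARP2) to 0.35 (PMS2). The difference between the 2 sets was not tested.

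Further genes of the same pathways, 57 measured of 98 listed, were also examined, with 6 lower, 0 higher and 51 not past the threshold in limma's test (23 lower and 5 higher at an unadjusted p under 0.05, against 10.4% and 7.52% of all genes) and a median of -0.20. Of the 6, 4 are among the 13 measured further checkpoint genes. CDC25A, the phosphatase that CHK1 restrains, had 109, 109 and 120 in ATRA samples, against 189, 190 and 236 in DMSO samples (log2 change -0.86, limma adjusted p = 0.0104). CLSPN, or claspin, the adaptor between ATR and CHK1, had 116, 111 and 123 in ATRA samples, against 188, 197 and 177 in DMSO samples (change -0.69, adjusted p = 0.0104). Both groups were apart in each gene, though the mean of the 2 CLSPN probe sets did not pass (-0.39, adjusted p = 0.100).

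TIPIN, which protects paused forks with TIMELESS, fell by 0.83 on the log2 scale (limma adjusted p = 0.0399), and TIMELESS differed by -0.75 without passing (adjusted p = 0.0547). WEE1, the kinase that holds back mitotic entry, fell by 0.62 (adjusted p = 0.0238). USP1, which removes ubiquitin from the FANCD2 and FANCI pair, fell by 0.58 (adjusted p = 0.0183) and was the 1 of 7 measured further Fanconi genes that passed. RAD18, which marks stalled forks for translesion synthesis, fell by 0.46 (adjusted p = 0.0498) and passed in 0 of the 6 fits that drop an array (0.0906 to 0.145). In those fits TIPIN, WEE1 and USP1 each passed once (adjusted p up to 0.120, 0.0899 and 0.0790), and CLSPN missed without DMSO replicate 1 (0.0509). RAD17, which loads the checkpoint clamp, was higher without passing (0.45, adjusted p = 0.0708). Of the 13 further excision genes, 12 further recombination genes and 5 further end joining genes measured, 0 passed, with 2, 5 and 2 lower and 3, 1 and 0 higher at an unadjusted p under 0.05, where 10.4% of all genes were lower and 7.52% higher.

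Lists of other genes used by cycling cells give a scale for these values. Of 26 measured replication genes (among them subunits of the replicative helicase), 23 fell and the median log2 difference was -0.73. Of 26 measured mitosis genes, 2 fell and the median was -0.24. At an unadjusted p under 0.05 in limma's test, 26 replication genes and 13 mitosis genes were lower, and 0 of either were higher. Of all genes, 2.07% fell, 10.4% were lower at that unadjusted p and the median was -0.01. The S phase members had a median of -0.57 and the other members one of -0.14. The mean log2 level of the 32 members per array was 6.66, 6.80 and 6.77 in ATRA samples, against 6.99, 7.03 and 7.01 in DMSO samples. For the replication genes it was 7.38, 7.36 and 7.34 in ATRA samples, against 8.05, 8.16 and 8.12 in DMSO samples. Both means were lower in every ATRA sample, and the part of the replication genes' change in that of the repair genes was not tested.

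**Figure D4:**
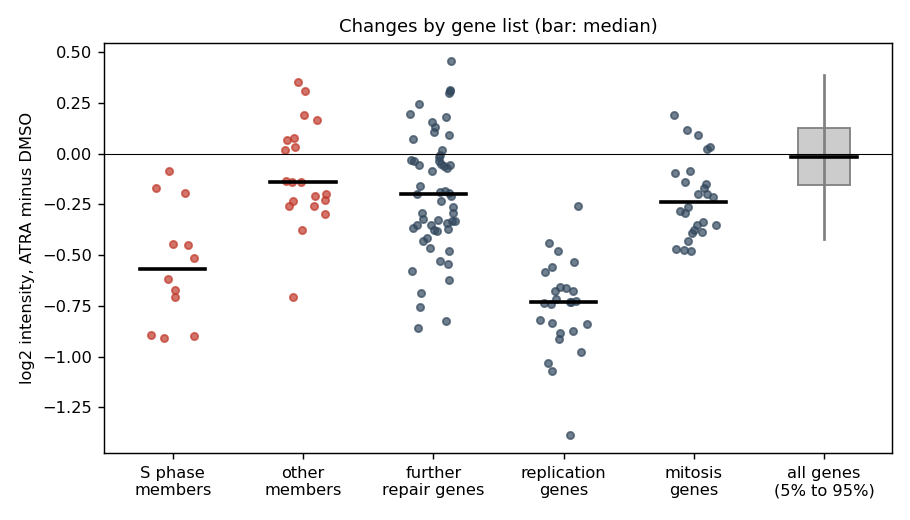
Log2 difference of intensity (ATRA minus DMSO, y axis) of each measured gene (dots) with the median as a bar, for the 12 S phase members, the other 20 members, 57 further repair genes, 26 replication genes and 26 mitosis genes. The last column shows all 14884 genes, with the box over the middle quartiles and the line over the 5th to 95th percentile, and the median of the S phase members lies between those of the other members and the replication genes.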

How the data were processed

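The values that the authors deposited are linear intensities of 53617 probe sets on 6 arrays. RMA and limma appear in the submitters' processing notes, without versions or roles, and the genome build is not given in the sources used here. All values were above 0 and were turned to log2 with no pseudocount. The design had foreseen log2. Of the probe sets, 16098 had exactly 1 symbol, giving 14884 genes, each represented by its brightest probe set on average. Groups came from the labels.

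The groups were compared with limma 3.58.1 in R 4.3.3 (lmFit, eBayes, two-sided, no block, no filter on dim genes), with Benjamini-Hochberg adjustment over all genes. The fit was tested on simulated data. Intervals of 95% use its moderated SE, and SDs are over 3 arrays. The members, their pathways, the S phase, replication, mitosis and further repair lists and the tests were chosen with earlier results of these data known. Named are every called member, every other measured member by its difference, and the called further repair genes; RAD17 and TIMELESS were added after their values were seen. Symbols with no probe set of 1 symbol were left out. Alternatives were a replicate block, leaving out each array, a filter on dim genes, a common median, quantile normalization, eBayes with trend and robust, averaging all probe sets of a gene and a pseudocount of 16. Protein-coding genes alone and the pairs were added after seeing the data.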

Additional observations from a re-analysis of the deposited data

How the results depend on the processing

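The 5 lower members became 12 without the dimmer 50% of genes (where 31 of the 32 were tested), 14 with eBayes with trend and robust, 12 with a pseudocount of 16, 8 among protein-coding genes alone and 3 to 4 with 1 array left out. In these same settings and order the lower genes of all tested were 9.50%, 5.60%, 5.15%, 3.18% and 0.638% to 1.11%, against 2.07%, so the background moved the same way. The S phase members among them numbered 9 in the first 3 of these settings and 3 to 4 with 1 array left out. Lower recombination genes numbered 5, 5, 5 and 3 in the first 4 settings, 3 with a common median, 0 with quantile normalization (RAD54L, adjusted p = 0.0515) and 0 to 1 with 1 array left out. Lower excision genes numbered 3, 4, 3 and 2, and 1 to 2 with 1 array left out. Lower end joining genes numbered 1, 2 and 1 in the first 3 settings and 0 with 1 array left out. Lower mismatch genes numbered 1 to 2 and lower checkpoint genes 1 with 1 array left out. Members that were higher numbered 0 in every setting. The median difference of the members lay between -0.26 and -0.20 with 1 array left out. UNG, MSH6 and CHEK1 passed in every setting except that MSH6 and CHEK1 did not with the replicate block. Several members not called in the main fit passed in some of the 8 settings that keep all arrays. BRIP1 and RAD51AP1 did so in 5, XRCC1 in 4, BARD1, PARP2, XRCC2 and XRCC5 in 3 each, and PARP1 and XRCC6 in 1 each. No called difference reversed, and the uncalled differences of CHEK2, NBN, PALB2 and RAD54B changed sign when some single arrays were dropped (CHEK2 also with its probe sets averaged, NBN with a common median). The cause of these shifts was not tested. Fits with 1 array left out have less power, and 7442 genes were tested without the dimmer 50% and 11916 among protein-coding genes. The fits with trend and robust and with a pseudocount of 16 used all 6 arrays and 14884 genes.

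Same-numbered ATRA and DMSO arrays did not deviate together by the limit set for pairing (correlations across genes of 0.0087 to 0.017, under 0.1), though each correlated best with its own number. With the replicate block 1 member was lower, UNG, with 1 S phase member, 1 excision gene and 0 recombination, mismatch, end joining and checkpoint genes, when 87 genes in all were lower. Adjusted p was then 0.0506 for CHEK1, 0.0547 for MSH6, 0.0670 for EXO1 and 0.113 for RAD54L. The further repair genes TIPIN, WEE1, USP1, RAD18 and CLSPN also lost their calls with the block (adjusted p = 0.0908, 0.0902, 0.0793, 0.117 and 0.0644), RAD18 with quantile normalization too (0.0594), and CDC25A passed in every setting. Signal limits RAD52, XRCC3, OGG1 and RAD54B, whose mean log2 levels lay under those of the T cell marker CD8A (4.75 with ATRA, 5.06 with DMSO).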
